A study of Mus musculus with 3 samples.

Results

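The regulators of mitochondrial metabolism examined here were 10 genes, Ppara, Ppard, Pparg, Ppargc1a, Ppargc1b, Esrra, Esrrb, Esrrg, Nrf1 and Tfam, taken by their names, which were picked with earlier results of these libraries known. The gene lists set beside them below were also chosen with such results known. Each name was found once in the deposited transcript annotation, so that the 10 genes lay in 10 of the 48626 loci of the series and in 10 of its 20117 mRNA loci, that is, loci with a transcript matching a RefSeq mRNA. All 10 reached 1 FPKM in at least 1 library, as did 12569 mRNA loci in all. FPKM is the number of sequenced fragments per kilobase of exon scaled to the mapped fragments of the library. Levels can thus be set side by side between genes, within the limit that the E13.5 library differed by transcript length.

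Total RNA came from the heart ventricle of C57BL/6 mice with no treatment or engineered allele named in the labels. The 3 groups were embryos at E10.5, embryos at E13.5 (the numbers are days of embryonic development) and Adult, mice at 8 weeks of age. A stage was represented by 1 library, and the labels do not give the number of animals in it or their sex. A difference between stages therefore has no replicate error and no p-value, and every value comes from a single library. Where 3 values follow each other they stand for E10.5, E13.5 and Adult, in that order.

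The heart covers most of its need for ATP from mitochondria, and after birth it turns from glucose and lactate towards fatty acids as fuel. The peroxisome proliferator-activated receptors (PPARs) are nuclear receptors that bind fatty acids and, paired with a retinoid X receptor (RXR), switch on genes for the uptake and burning of fat. PGC-1α and PGC-1β, made from Ppargc1a and Ppargc1b, are coactivators that dock on PPARs, on the estrogen-related receptors (ERRs) and on nuclear respiratory factor 1 (made from Nrf1, and not to be confused with the product of Nfe2l1). ERRs and NRF1 act on genes of the respiratory chain, and among the targets of NRF1 is Tfam, whose product packages mitochondrial DNA and starts its transcription.

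In short, the fatty acid receptor genes Ppara and Pparg stood far higher in the Adult library than in either embryonic library, and both PGC-1 genes and Esrrb were also highest there. Esrrg was highest at E10.5 and Tfam at E13.5. Nrf1 was lowest in Adult, and whether it was higher at E10.5 or E13.5 depended on the scaling of the libraries. Ppard stayed between 1.10 and 1.90 FPKM in the 3 libraries. Changes were measured as differences of log2(FPKM + 1), which understate the change of low genes, and a difference of 1 or more was counted as past the threshold.

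**Figure D1:**
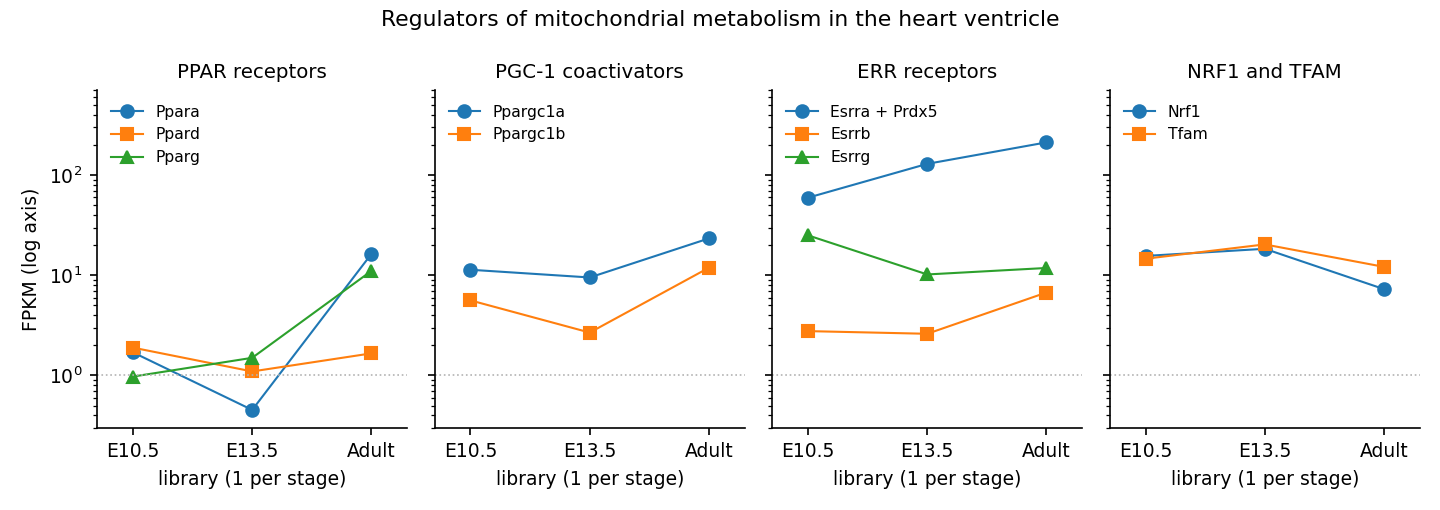
FPKM of the 10 regulator genes (vertical log axis) in the 3 libraries, 1 point per library and gene and no error bars because there is 1 library a stage, with a dotted line at 1 FPKM. Ppara and Pparg go from 1.70 and 0.975 FPKM at E10.5 to 16.3 and 11.1 in Adult, while Nrf1 goes from 15.6 to 7.28, and the highest line is a locus that joins Esrra with its neighbour Prdx5.

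From E10.5 to Adult, 4 of the 10 genes were higher past the threshold, against 14.8% of the 12569 mRNA loci. These were Ppara, Pparg, the locus of Esrra and Esrrb. In the same comparison 2 genes, Esrrg and Nrf1, were lower past the threshold, against 27.3% of all mRNA loci. The median difference of the 10 genes was 0.97, whereas that of all mRNA loci was -0.40. From E10.5 to E13.5, 1 gene was higher (the locus of Esrra) and 1 lower (Esrrg), beside 5.89% and 4.85% of mRNA loci, and the medians were -0.15 for the regulators and 0.17 for all. From E13.5 to Adult, 5 were higher (Ppara, Pparg, both PGC-1 genes and Esrrb) and 1 was lower (Nrf1), beside 13.0% and 32.1% of mRNA loci, with medians of 0.90 and -0.50. The comparisons share libraries and are not independent of each other.

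**Figure D2:**
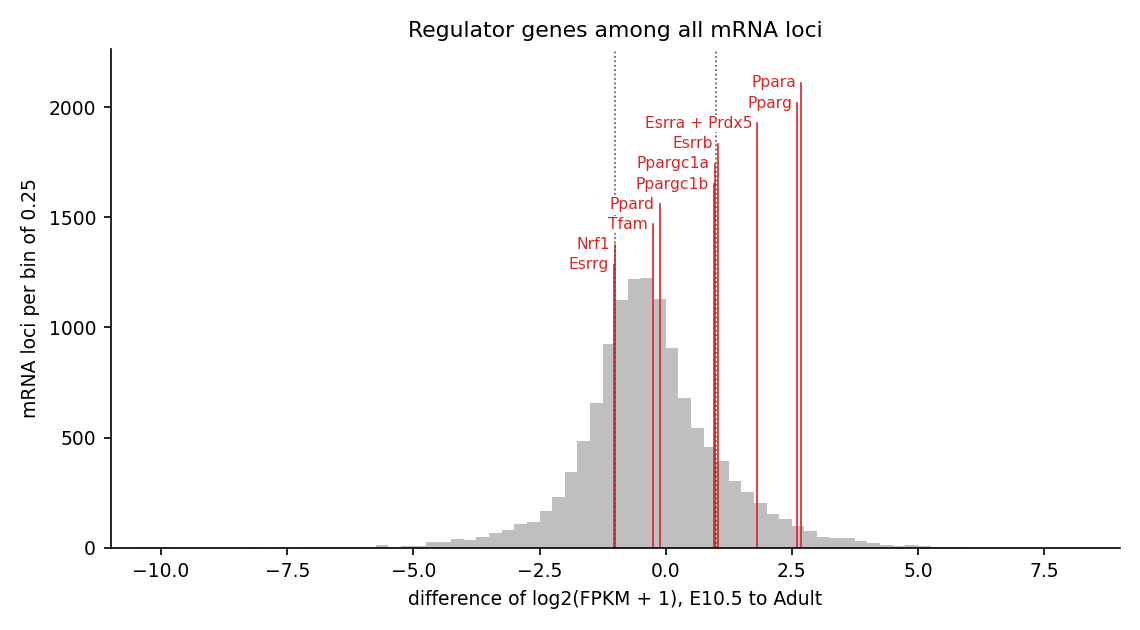
Histogram of the difference of log2(FPKM + 1) from E10.5 to Adult over 12569 mRNA loci (vertical axis, loci per bin of 0.25), with the regulator genes as labelled vertical lines whose height has no meaning and dotted lines at -1 and 1. Ppara (2.68) and Pparg (2.61) lie in the upper tail, Ppargc1a (0.98) and Ppargc1b (0.96) lie just inside the upper line, and Esrrg (-1.02) and Nrf1 (-1.0) lie on the lower line.

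The deposited scaling leaves the median of all mRNA loci below 0 in both comparisons with Adult, which bears on every gene near the threshold. Rescaling the libraries with median-of-ratios factors moved the median of all mRNA loci from -0.40 to -0.06 for E10.5 to Adult, and 2510 loci were then higher and 2311 lower instead of 1856 and 3430. For E13.5 to Adult the split went from 1637 higher and 4029 lower to 2618 and 2380, and for E10.5 to E13.5 from 740 and 609 to 526 and 790. Taken relative to the deposited median of all mRNA loci, the E10.5 to Adult difference was 3.08 for Ppara, 3.01 for Pparg, 1.43 for Esrrb, 1.38 for Ppargc1a, 1.36 for Ppargc1b, -0.62 for Esrrg and -0.61 for Nrf1. For these 7 genes the direction was thus the same on both scales, while the sizes differed. At the depth read from the lowest steps of the values, a transcript of 1 kb at 1 FPKM rested on roughly 13.8, 26.7 and 13.8 fragments.

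The E13.5 library also differed from the others by transcript length. Over the 773 mRNA loci of at most 1000 nt the median difference from E10.5 to E13.5 was 0.57, and over the 918 loci longer than 8000 nt it was -0.46. From E10.5 to Adult the medians of all length classes lay between -0.44 and -0.37. Ppargc1b (14628 nt), Ppargc1a (10692 nt), Ppara (7445 nt) and Esrrg (5354 nt) are long, and their E13.5 values are given below beside the value centred on the loci of the same length class. The part of length in those values was not tested further, and the E10.5 to Adult comparison carries most of what follows.

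The promoter windows of the members, 250 bases before to 50 after a start, were taken from RefSeq on GRCm38.p6, and 16 windows of 9 members were found, Ppargc1b being without one. The only Ppargc1a window lay 22 nt from its farthest upstream deposited start. The Ppargc1a starts of transcripts matching RefSeq lie 13562 and 13782 nt downstream of that start and had no window. The windows found were searched on both strands for short motifs of the factors in this network. The NRF1 core GCATGCGC was in the window of Ppara and in that of Esrra, and in 2.71% of all 32851 windows of the table. Of the 21262 windows of coding genes, 3.51% held it. The core CCGGAAGT of the GA-binding protein, an Ets factor also called NRF2 that acts with NRF1 on respiratory genes, was in the window of Tfam and in 3.89% of all windows. Among the windows of coding genes the share was 5.15%. The windows of these 3 members are shown because each carries a motif for a nuclear respiratory factor. Each is written 5′ to 3′ on the strand of its gene, with the motif in capitals.

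Ppara, chr15:85735526-85735825, plus strand: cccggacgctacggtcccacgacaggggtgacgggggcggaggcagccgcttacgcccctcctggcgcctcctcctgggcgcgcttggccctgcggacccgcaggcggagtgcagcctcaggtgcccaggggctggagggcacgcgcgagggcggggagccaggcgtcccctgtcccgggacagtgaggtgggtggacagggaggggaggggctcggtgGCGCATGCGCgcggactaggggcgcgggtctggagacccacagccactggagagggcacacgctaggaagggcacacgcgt

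Esrra, chr19:6921759-6922058, minus strand: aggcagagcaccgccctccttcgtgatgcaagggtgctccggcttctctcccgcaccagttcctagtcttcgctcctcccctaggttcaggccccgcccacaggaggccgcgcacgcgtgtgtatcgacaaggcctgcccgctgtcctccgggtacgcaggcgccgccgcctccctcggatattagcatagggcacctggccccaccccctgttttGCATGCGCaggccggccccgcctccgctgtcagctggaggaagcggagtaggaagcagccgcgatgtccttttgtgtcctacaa

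Tfam, chr10:71237995-71238294, minus strand: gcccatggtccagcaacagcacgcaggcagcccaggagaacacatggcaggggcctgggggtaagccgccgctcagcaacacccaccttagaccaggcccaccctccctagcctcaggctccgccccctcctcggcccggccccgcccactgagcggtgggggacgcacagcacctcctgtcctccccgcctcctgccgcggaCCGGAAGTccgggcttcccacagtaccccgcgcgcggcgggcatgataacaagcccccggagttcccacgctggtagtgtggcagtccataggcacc

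In the Ppara window the core was read on both strands in overlapping copies that begin at positions -31 and -29 from the start, in Esrra it begins at -34, and in Tfam the GA-binding protein core begins at -47. For Ppara this start lies 212 nt downstream of another RefSeq start, for which no window was found. The ERR element TCAAGGTCA was in none of the 16 windows and in 0.423% of all windows. The direct repeat of AGGTCA with 1 base between, the element that PPARs bind with RXR, was in none and in 0.0396%, and the cyclic AMP element TGACGTCA was in none and in 1.79%. The Ppargc1a starts without a window were not searched for any of these motifs. The hexamer AGGTCA, which also lies inside the ERR element and the direct repeat, was in 2 of the windows, both of Pparg, and in 16.3% of all. These matches describe letters in the windows and no binding was measured.

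Ppara, the PPAR of tissues that burn fat, lies on chromosome 15 (85735564 to 85806884, plus strand) and was at 1.70, 0.453 and 16.3 FPKM. These values rest on about 175, 90 and 1679 fragments. The Adult library stood above both embryonic ones, and the gene moved from percentile 15.1 and 4.05 of the 12569 mRNA loci to percentile 74.8, a rank that no scaling of a whole library changes. The difference from E10.5 to Adult was 2.68 on the log2 scale, or 9.62-fold in FPKM. The lower value at E13.5 gave a difference from E10.5 of -0.89, -0.68 when centred on its length class, -1.02 after scaling to equal sums and -1.70 with a pseudocount of 0.1 FPKM, so whether it passed depended on the setting. An unnamed locus of a single exon on the other strand, starting 960 nt upstream of Ppara, was listed at 0 in the E10.5 library and was at 0.0729 and 1.10 FPKM in the later ones.

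Pparg, best known as the PPAR of fat cells, lies on chromosome 6 (115361191 to 115490401, plus strand) and was at 0.975, 1.5 and 11.1 FPKM. The estimates behind these values were about 25, 74 and 284 fragments, so its embryonic levels are the least precise of the 10 genes. It went from percentile 9.97 and 11.5 to percentile 64.0, and its difference from E10.5 to Adult was 2.61. The difference from E10.5 to E13.5 was 0.34, and -0.08 when centred on loci of its length class. The locus holds RefSeq forms whose starts lie 60875 nt apart, and 1 value per locus does not tell them apart.

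Ppard, the most widely expressed PPAR, lies on chromosome 17 (28232754 to 28301943, plus strand) and was at 1.90, 1.10 and 1.66 FPKM on about 84, 94 and 74 fragments. Its difference from E10.5 to Adult was -0.12 as deposited and 0.15 after median-of-ratios scaling, so its direction depends on the scaling. Ratios within a library do not depend on such scaling. Ppara to Ppard was 0.897, 0.413 and 9.83, and Pparg to Ppard was 0.514, 1.37 and 6.66. Scaling a whole library leaves the length difference of the E13.5 library in place, and Ppara, Ppard and Pparg differ in length (7445, 3218 and 1857 nt). The part of length in the E13.5 ratios was not tested. Ppard thus made up 41.5% of the summed PPAR signal in the E10.5 library and 5.72% in Adult, while that sum went from 4.57 to 29.1 FPKM.

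Fat cells around the heart and immune cells express Pparg, so their markers were read in the same libraries. Of the 6 adipocyte markers, including Adipoq (adiponectin) and Plin1 (the coat protein of fat droplets), none reached 1 FPKM in any library. Adipoq was at 0.359, 0.166 and 0.115 FPKM, and Plin1 was listed at 0 in all 3. Of the brown adipocyte pair, Ucp1 was at 0.0415 FPKM or below and Cidea, a lipid droplet protein, was at 0.974, 1.12 and 28.2. The 6 macrophage markers were all higher in Adult than at E10.5 past the threshold, beside 14.8% of all mRNA loci. The summed level of these markers was 37.8, 73.5 and 348 FPKM. Their part in the Adult level of Pparg was not tested. In bulk tissue, more cells of a type and more RNA per cell cannot be told apart.

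Other cell types were read in the same way for E10.5 to Adult, where 14.8% of all mRNA loci were higher and 27.3% lower. Of the 8 cardiomyocyte markers, 4 were higher, with Tnnt2 (cardiac troponin T) at 626.2, 1522 and 3148 FPKM, and 1 was lower, Ttn (titin), which is listed at 0 in Adult and cannot be read there. Of the 6 endothelial markers none passed in either direction, and their summed level was 290.4, 213.8 and 283.5 FPKM. Of the 6 fibroblast markers 2 were higher and 1 lower, and of the 5 erythroid markers 4 were lower, their sum going from 5720 to 25.0 FPKM. All 6 proliferation genes were lower, their median going from 36.2 to 0.386 FPKM. Of the skeletal muscle markers 2 of 6 reached 1 FPKM, 1 higher and 1 lower, and of the liver markers 4 of 5 did, of which 2 were lower.

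The RXR partners that PPARs need for binding DNA also shifted in proportion. Rxrg was at 0.691, 0.676 and 27.7 FPKM, a difference of 4.09 from E10.5 to Adult. Rxra, at 10.4, 16.8 and 9.80 FPKM, differed by -0.07, and Rxrb, at 11.2, 14.6 and 6.47, by -0.70. In Adult, Rxrg made up 63.0% of the RXR signal, after 3.11% and 2.11% in the embryonic libraries.

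**Figure D3:**
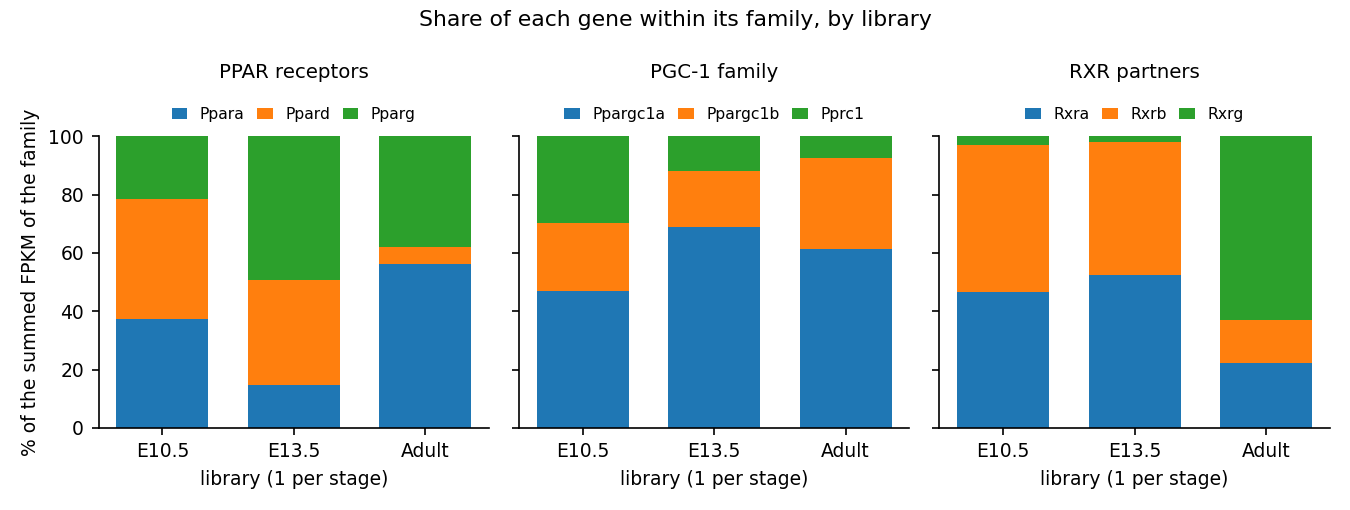
Share of each gene in the summed FPKM of its family (vertical axis, %), as stacked bars for the PPARs, the PGC-1 family and the RXRs in each of the 3 libraries. Ppard shrinks to 5.72% of the PPAR signal in Adult, Pprc1 falls from 29.9% to 7.47% of the PGC-1 signal, and Rxrg grows to 63.0% of the RXR signal.

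Of the 10 genes in the list of receptor partners and corepressors, 1 was higher past the threshold from E10.5 to Adult, Rxrg, and none was lower, beside 14.8% and 27.3% of all mRNA loci. The list had a median of 0.09. The corepressors did not pass. Ncor1, the platform protein of a repressor complex that binds unliganded receptors, was at 37.7, 24.2 and 36.1 FPKM, and Nrip1, a corepressor that restrains oxidative genes, at 7.09, 5.60 and 8.66. Nr0b2, a receptor without a DNA-binding domain that represses others, had the next largest difference in the list at 0.92, and Nr2f2, an orphan receptor, was at -0.49.

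Ppargc1a lies on chromosome 5 (51450144 to 51567703, minus strand) and was at 11.4, 9.51 and 23.4 FPKM, on about 1675, 2712 and 3444 fragments. Adult was the highest of the 3 libraries, and the difference from E10.5 was 0.98, or 2.06-fold in FPKM, just short of the threshold. The difference from E10.5 to E13.5 was -0.23, and 0.22 when centred on loci of its length class. In rank the gene went from percentile 54.2 and 47.8 to 82.3. The deposited transcripts start at 3 places, the farthest apart 13782 nt, which a single value per locus does not separate.

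Ppargc1b lies on chromosome 18 (61287164 to 61400431, minus strand) and was at 5.62, 2.68 and 11.9 FPKM, on about 1133, 1046 and 2403 fragments. It too was highest in Adult, with a difference from E10.5 of 0.96. The difference from E10.5 to E13.5 was -0.85, which became -0.39 when centred on loci of its length class. Ppargc1a to Ppargc1b was 2.02, 3.55 and 1.96, so both genes kept nearly the same proportion at the outer stages. After median-of-ratios scaling the E10.5 to Adult differences were 1.37 for Ppargc1a and 1.34 for Ppargc1b, both past the threshold. The related coactivator gene Pprc1 was at 7.24, 1.63 and 2.85 FPKM. From E10.5 to Adult it went the other way, with a difference of -1.10 that was -0.77 after median-of-ratios scaling. From E13.5 to Adult it was higher, as both PGC-1 genes were, with a difference of 0.55.

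The genes of proteins that act on or with PGC-1 formed a list of 17, of which 16 reached 1 FPKM. Of these 16, 3 were higher from E10.5 to Adult, a share near the 14.8% of all mRNA loci, and 2 lower, beside 27.3%, with a median of -0.12 as deposited and 0.28 after median-of-ratios scaling. The 3 that were higher were Perm1, Lpin1 and Klf15. Perm1, a muscle protein induced by PGC-1 and ERR, was at 1.17, 0.656 and 71.5 FPKM, a difference of 5.06. Lpin1, a lipid phosphatase that also works as a coactivator of PGC-1α and PPARα, was at 2.84, 2.74 and 64.1, a difference of 4.08. Klf15, a factor of cardiac lipid use, was at 1.60, 2.57 and 10.3, a difference of 2.12.

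Kat2a, which encodes the acetyltransferase GCN5 that silences PGC-1α, was lower, at 13.4, 9.64 and 4.02 FPKM and a difference of -1.52. Its counterpart Sirt1, whose product removes those acetyl groups, was at 16.4, 15.0 and 8.26 FPKM, a difference of -0.91 that did not pass. The genes of the AMP-activated kinase, which phosphorylates PGC-1α, were at 21.9, 15.7 and 10.7 FPKM for Prkaa1 and at 45.5, 25.5 and 40.9 for Prkaa2. Neither passed the threshold, with differences of -0.97 and -0.15.

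Esrra could not be read alone. In the deposited annotation its locus on chromosome 19 (6906698 to 6921808, minus strand) also holds Prdx5, an antioxidant enzyme encoded downstream on the same strand, because 1 assembled transcript of 12 exons runs through both genes. The joined locus was at 59.6, 129.6 and 212.4 FPKM, with differences of 1.11 from E10.5 to E13.5 and 1.82 from E10.5 to Adult. These values can come from either gene, and how much belongs to Esrra was not tested. With the locus left out, 3 of the remaining 9 regulators were higher from E10.5 to Adult and 0 from E10.5 to E13.5, beside 14.8% and 5.89% of all mRNA loci. Trmt112, which overlaps the locus on the other strand, was at 5.70, 6.24 and 4.98 FPKM.

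**Figure D4:**
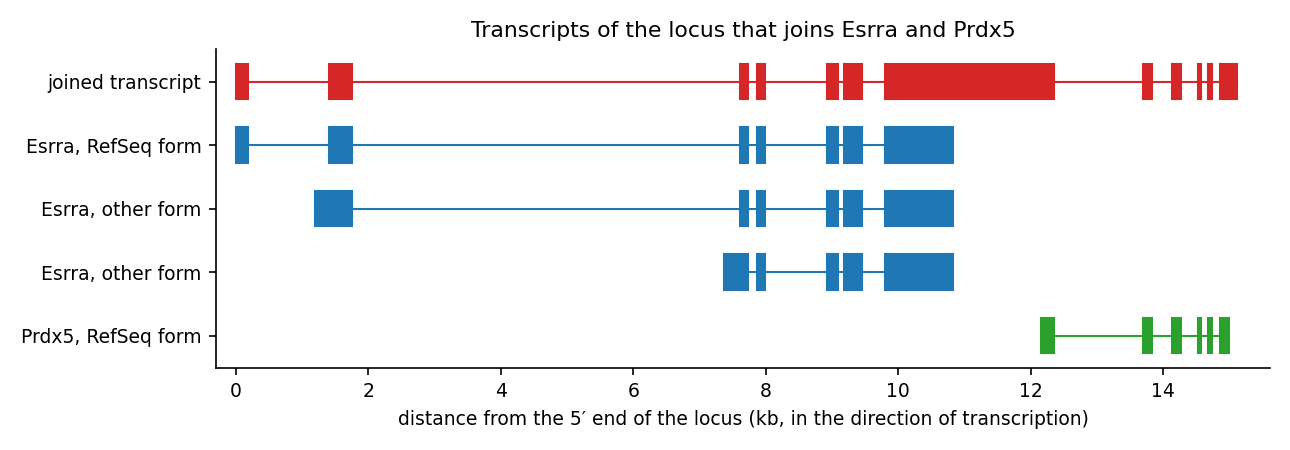
Exons (boxes) of the 5 deposited transcripts of the locus holding Esrra and Prdx5, by distance from the 5′ end of the locus in kb. The uppermost transcript of 12 exons spans both genes, the next 3 are forms of Esrra, and the lowest is the RefSeq form of Prdx5.

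Esrrb, the ERR best known from stem cells and early development, lies on chromosome 12 (86361067 to 86521910, plus strand) and was at 2.77, 2.61 and 6.73 FPKM, on about 164, 299 and 399 fragments. Both embryonic libraries gave nearly the same value and Adult the highest, with a difference from E10.5 of 1.04. Esrrg, the ERR of the oxidative heart and muscle, lies on chromosome 1 (187608765 to 188214987, plus strand) and was at 25.0, 10.2 and 11.8 FPKM, on about 1849, 1456 and 874 fragments. Here E10.5 was the highest library and the later ones lay close to each other, with a difference from E10.5 to E13.5 of -1.22, the same as when centred on its length class.

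From E10.5 to Adult the difference of Esrrg was -1.02 as deposited and -0.63 after median-of-ratios scaling, which ends its count past the threshold but not its direction. In rank Esrrg went from percentile 78.1 to 49.7 and then to 66. The ratio of Esrrg to Esrrb, which no scaling changes, was 9.03, 3.91 and 1.76. Esrrg remained the higher of the pair in each library.

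Nrf1 lies on chromosome 6 (30047988 to 30153458, plus strand) and was at 15.6, 18.4 and 7.28 FPKM, on about 772, 1760 and 360 fragments. Adult was the lowest library, with a difference from E10.5 of -1.0 as deposited and -0.63 after median-of-ratios scaling, which no longer passed. The difference from E10.5 to E13.5 was 0.22 as deposited and -0.07 when the libraries were scaled to equal sums without globin, mitochondrial and non-coding loci. In rank it went from percentile 64.2 and 67.2 to 51.3. A single-exon locus on the other strand that starts 162 nt upstream was at 1.12, 0.959 and 0.803 FPKM.

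Of the 6 other factors that work with NRF1 on respiratory genes, none was higher from E10.5 to Adult and 3 were lower, beside 14.8% and 27.3% of all mRNA loci, with a median of -0.86. The lowest were Yy1, a zinc finger factor that binds PGC-1α, at 25.6, 19.3 and 7.82 FPKM and a difference of -1.59, and Hcfc1, a cofactor of NRF1 and the GA-binding protein, at 18.9, 7.96 and 7.30 and a difference of -1.26. Gabpb1, a subunit of the GA-binding protein, was at 14.9, 10.8 and 5.95 FPKM, with a difference of -1.20, whereas the DNA-binding subunit Gabpa was at 35.9, 36.1 and 28.2. After median-of-ratios scaling only Yy1, at -1.21, stayed past the threshold.

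Tfam lies on chromosome 10 (71225477 to 71238062, minus strand) and was at 14.6, 20.3 and 12.1 FPKM, on about 791, 2126 and 656 fragments. Its difference from E10.5 to Adult was -0.25 as deposited and 0.13 after median-of-ratios scaling, so its direction depends on the scaling. Its rank stayed between percentile 62.0 and 69.9. Tfam to Nrf1 was 0.938, 1.11 and 1.67.

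The other nuclear genes for the transcription and upkeep of mitochondrial DNA were read next. Of 17 genes, 2 were higher from E10.5 to Adult, a share near the 14.8% of all mRNA loci, and 1 was lower, beside 27.3%, and the median was 0.11. Tfb2m, the partner of TFAM in starting transcription, was at 9.48, 10.2 and 27.1 FPKM, a difference of 1.42, and Mterf2, of the termination factor family, was at 6.78, 9.06 and 21.6, a difference of 1.54. Polrmt, the mitochondrial RNA polymerase, was at 5.98, 6.67 and 3.79, a difference of -0.54. Polg2, the accessory subunit of the mitochondrial DNA polymerase, was at 7.48, 2.77 and 1.77 FPKM, a difference of -1.61 that was -1.32 after median-of-ratios scaling. The genes of the mitochondrial genome itself could not be read, since the annotation holds it as 1 locus, at 1167 FPKM in the E10.5 library and listed at 0 in both others.

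The known targets of the PPARs were mostly higher in Adult. Their list was chosen with earlier results of these libraries known, so its counts describe it and are no independent test. Of 26 targets, 25 were higher from E10.5 to Adult and none was lower, against 14.8% and 27.3% of all mRNA loci, and the median was 2.42 against -0.40. Most of the move came after E13.5, where 19 were higher beside 13.0% of all mRNA loci and the median was 2.13 beside -0.50. From E10.5 to E13.5, 4 were higher and 1 lower, beside 5.89% and 4.85% of all mRNA loci, with medians of 0.44 and 0.17. Fabp4, a carrier of fatty acids in endothelium, macrophages and fat cells, was at 12.7, 17.9 and 637.5 FPKM, a difference of 5.55. Cd36, a fatty acid transporter of the cell surface, was at 39.3, 34.7 and 1226 FPKM, a difference of 4.93. The exception was Ucp2, an uncoupling protein of many tissues, at 10.9, 9.55 and 6.38 FPKM and a difference of -0.69.

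Among the enzymes of fatty acid oxidation, Acadvl, which starts the breakdown of very long chains, was at 33.9, 55.3 and 422.4 FPKM, and Acadm, which acts on medium chains, at 81.9, 135.3 and 744.8. Pdk4, the kinase that holds back glucose oxidation, was at 6.16, 7.34 and 71.3 FPKM. Lpl, the lipase that frees fatty acids from lipoproteins, was at 82.8, 13.3 and 1116 FPKM. These genes were thus already present in the embryonic ventricle, with E13.5 below E10.5 for Lpl and above it for Acadvl and Acadm. For Pdk4 both embryonic libraries were close, with a difference of 0.22 as deposited and 0.08 after median-of-ratios scaling. In 6 of the 26 PPAR targets the locus also holds another gene or a microRNA. Of the 20 others 19 were higher from E10.5 to Adult, beside 14.8% of all mRNA loci.

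Targets of the ERRs and PGC-1 were likewise higher, with a smaller median. Of 26 of them measured, 18 were higher from E10.5 to Adult and none was lower, against 14.8% and 27.3% of all mRNA loci, and the median was 1.38. Ckmt2, the creatine kinase of heart and muscle mitochondria, was at 23.9, 4.76 and 1531 FPKM, a difference of 5.94, and Cox8b, a muscle subunit of cytochrome oxidase, at 84.1, 96.7 and 1883, a difference of 4.47. The 7 with a positive difference under the threshold were the ATP synthase genes Atp5b, Atp5a1 and Atp5o, the Krebs cycle genes Cs, Mdh2 and Idh3a, and Cox5a of cytochrome oxidase. Atp5b was at 1202, 1888 and 2233 FPKM, a difference of 0.89, and Cs, citrate synthase, at 292.4, 223.7 and 485.6, a difference of 0.73. After median-of-ratios scaling 24 of the 26 passed, beside 20% of all mRNA loci higher past the threshold. Atp1b1, a subunit of the sodium pump, was at 172.4, 128.5 and 89.7 FPKM, a difference of -0.93. The list, also chosen with earlier results known, contains the joined locus of Esrra and shares Pdk4 with the PPAR targets.

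**Figure D5:**
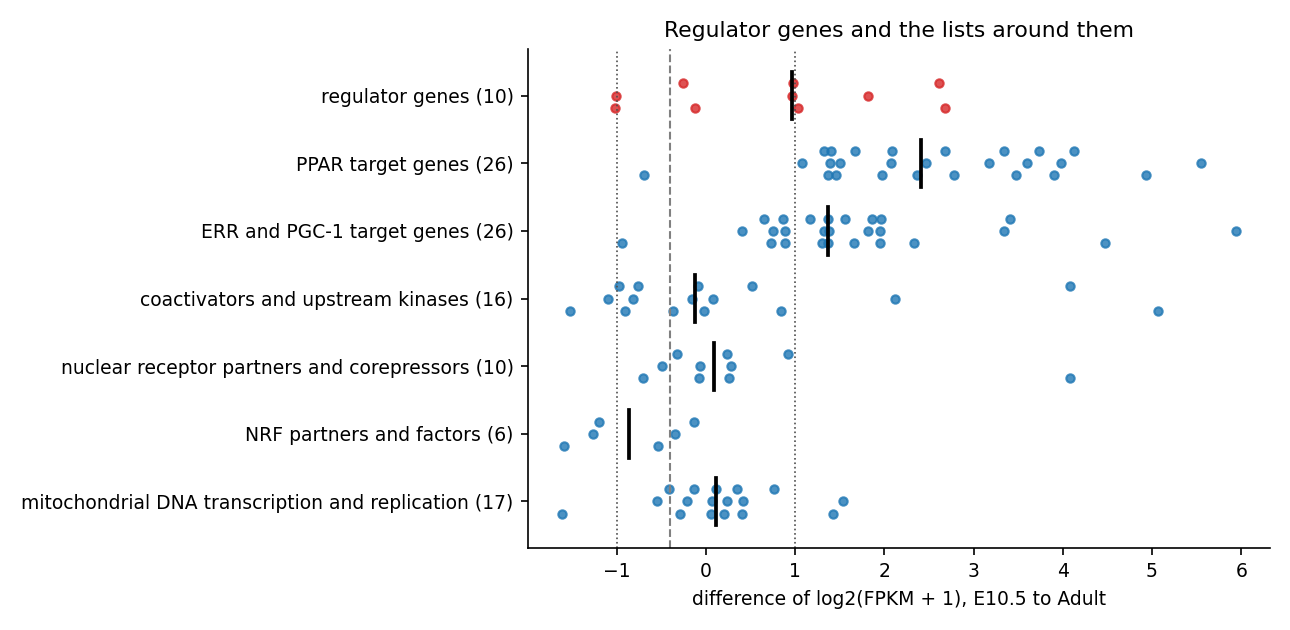
Differences of log2(FPKM + 1) from E10.5 to Adult (horizontal axis) for the 10 regulator genes (top row) and the genes of each list at 1 FPKM or more in a library, 1 point per gene, with the number of genes in parentheses, black bars at the medians, a dashed line at the median of all mRNA loci (-0.40) and dotted lines at -1 and 1. The PPAR targets (median 2.42) and the ERR and PGC-1 targets (1.38) lie to the right of the regulators themselves (0.97), and the median of the NRF partners (-0.86) is the lowest of the 7 rows drawn.

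The order of the regulators within each library changed between the embryo and the adult. Leaving out the joined locus of Esrra, the order at E10.5 ran from Esrrg (25.0 FPKM) over Nrf1, Tfam and Ppargc1a to Ppard, Ppara and Pparg (0.975) at the end. At E13.5, Tfam (20.3) and Nrf1 (18.4) led and Ppara (0.453) was last. The part of transcript length in the E13.5 order was not tested. In Adult, Ppargc1a (23.4) and Ppara (16.3) led, Tfam (12.1), Ppargc1b (11.9), Esrrg (11.8) and Pparg (11.1) followed close together, and Ppard (1.66) was last. With 1 library a stage, places of genes so close in level cannot be ordered beyond error.

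Among the other mRNA loci, those most like the regulators with the largest E10.5 to Adult differences were sought by Euclidean distance of log2(FPKM + 1) over the 3 libraries after subtraction of each locus mean. For Ppara the nearest were Mylk4, a myosin light chain kinase of muscle (0.637, 0.0438 and 11.1 FPKM, distance 0.18), Hrc, a calcium-binding protein of the sarcoplasmic reticulum (20.2, 12.0 and 164.9, distance 0.20), and Nr1d1, the clock receptor REV-ERBα (2.71, 0.831 and 18.4, distance 0.21). For Pparg they were Ephx1, an epoxide hydrolase (2.67, 3.72 and 21.4, distance 0.02), Sepx1, a selenoprotein that repairs oxidised methionine (19.3, 25.2 and 121.2, distance 0.03), and Maob, a monoamine oxidase of the mitochondrial surface (2.56, 3.69 and 21.6, distance 0.05). Within a distance of 0.5 lay 43 of 12559 loci for Ppara and 320 for Pparg, so a pattern over 3 libraries is shared by many genes.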

How the data were processed

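Total RNA of mouse heart ventricle (E10.5, E13.5 and Adult, 1 library each) was sequenced after stranded total RNA library preparation. The authors mapped reads to mm10 and assembled them with TopHat2, Bowtie and Cufflinks, and deposited FPKM values per merged locus with an annotation of the merged transcripts. Full versions, strand setting and handling of multiply mapped fragments are not given in the sources used here. Coordinates are GRCm38, since 99.6% of the 185861 introns of mRNA loci were in GENCODE M21.

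Members and lists were chosen with earlier results of these data known. A symbol was read from the locus with a transcript matching a RefSeq mRNA of that name. Fragment numbers were estimated from the smallest steps in FPKM times length and are approximate, so values near 1 FPKM are imprecise. The pseudocount was 1 FPKM, the threshold 1 on the log2 scale, and the background the mRNA loci at 1 FPKM or more in a library. Without replicates no test was run. Of each list, up to 2 genes with the largest rise and 2 with the largest fall between E10.5 and Adult were named, besides genes whose products act on a regulator. Acadvl, Acadm, Lpl, Atp5b, Cs and the corepressor and marker genes named as examples were chosen after their values were seen. The counting was tested on simulated data. Alternatives changed the pseudocount, threshold, scaling, loci per symbol and filter. Of the genes in the lists, 16 had no mRNA locus of their own. Calculations used Python 3.11.15, numpy 2.4.6 and pandas 2.3.3, and matches to the genome used pysam 0.24.0.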

Additional observations from a re-analysis of the deposited data

How the results depend on the processing

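No paired analysis was possible because there is only 1 library a stage, and no replicate could be left out. Of 150 recomputed log2 differences of the regulators 145 moved by less than 1.5-fold, and 7, all of genes under the threshold, changed sign. The 150 include the sums of all loci with a symbol, which could not move because each symbol had 1 locus. The 5 that moved more were, with a pseudocount of 0.1 FPKM, Ppara from E10.5 to E13.5 (-1.70) and from E13.5 to Adult (4.90) and Pparg from E10.5 to Adult (3.38), and, when centred on length class, Pparg (3.06) and the locus of Esrra (1.35) from E13.5 to Adult. Counts of regulators past the threshold changed as follows. With a threshold of 2 they were 0 higher and 0 lower from E10.5 to E13.5, 2 and 0 from E13.5 to Adult and 2 and 0 from E10.5 to Adult. The shares of all mRNA loci were then 0.851% and 0.247%, 4.41% and 9.88%, and 5.59% and 8.1%, in that order. With median-of-ratios scaling 0 were higher from E10.5 to E13.5, beside 4.18% of all mRNA loci. With it 0 were lower in both comparisons with Adult, beside 18.9% from E13.5 and 18.4% from E10.5. With equal sums without globin, mitochondrial and non-coding loci 0 were higher and 3 lower from E10.5 to E13.5, 0 lower from E13.5 to Adult and 1 lower from E10.5 to Adult. The shares of all mRNA loci beside these counts were 3.36%, 8.64%, 23.6% and 27.3%. With a pseudocount of 0.1 FPKM 3 were lower from E10.5 to E13.5, beside 7.54% of all mRNA loci. The count of higher genes from E10.5 to Adult went from 4 to 6 with a pseudocount of 0.1 FPKM, median-of-ratios scaling or length centring, and that from E13.5 to Adult from 5 to 6 with either scaling or length centring. The share of all mRNA loci that were higher rose as well, from 14.8% to 17.5%, 20% and 20.8% from E10.5 to Adult. From E13.5 to Adult it rose from 13.0% to 20.8% with median-of-ratios scaling, 17.2% with equal sums and 20.6% with length centring. Summing all loci with a symbol changed nothing, as each symbol had 1 locus. In alternatives added after seeing the data, centring on length class gave 0 higher from E10.5 to E13.5 and 0 lower in both comparisons with Adult, and leaving out the joined locus of Esrra gave 0 higher from E10.5 to E13.5. With centring, 3.44% of all mRNA loci were higher from E10.5 to E13.5. The shares lower were 17.1% from E13.5 to Adult and 16.7% from E10.5 to Adult. For the lists from E10.5 to Adult, a threshold of 2 left 16 PPAR targets and 5 ERR and PGC-1 targets higher, 0 coactivator genes and 0 NRF partners lower, and 0 mitochondrial DNA genes in either direction. At that threshold 5.59% of all mRNA loci were higher and 8.1% lower. Median-of-ratios scaling left 1 coactivator gene and 1 NRF partner lower, and 2 receptor partners were higher with it or with a pseudocount of 0.1 FPKM. Of all mRNA loci, 18.4% were lower and 20% higher with that scaling, and 17.5% were higher with that pseudocount. The ratios between family members moved by less than 1.5-fold with 0.1 FPKM added. Without the filter on low values the share of mRNA loci past the threshold from E10.5 to Adult was 9.23% higher and 17.1% lower. Where scalings disagree the cause was not tested.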
